A study of Mus musculus with 46 samples.

Results

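Livers of Plvap knockout mice taken after a meal were compared with livers of Plvap knockout mice taken at the end of a fast. Plvap is the gene of a protein found in the diaphragms of fenestrae and caveolae. It was deleted with a Cre recombinase under the Lrat promoter, whose activity in the liver marks hepatic stellate cells. The 9 libraries were picked by their labelled genotype, diet and feeding state, 4 refed and 5 fasted, out of 46 libraries in 10 groups. The refed knockouts carried Plvaptm1.1Salm-Tg(Lrat-cre)1Rshw, ate chow, and were killed after 10 h without food followed by 2 h with food. The fasted knockouts carried the same alleles, ate chow and were killed after 12 h without food overnight. Littermate controls served as a second pair, with 4 refed and 6 fasted livers under the same schedules. The labels list the same line for them and do not say which of the alleles they carried. All 19 mice were male C57BL/6JBomTac animals, and each library is bulk RNA of 1 snap-frozen liver. The free text of the treatment protocol gives a 12 h fast for all animals, while the entries for the single samples give the schedules used here. Age and time of day at sacrifice are not given in the sources used here.

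The liver switches its metabolism within hours of a meal. Insulin and portal glucose raise glycolysis and the SREBP factors, which drive fatty acid and sterol synthesis, and they lower the FOXO1-dependent genes of glucose output. In the fast, glucagon, glucocorticoids and fatty acids acting on PPARA raise gluconeogenesis, fatty acid oxidation, ketone production, amino acid breakdown and autophagy. Protein secretion grows again after food, and with it the demand on the folding machinery of the endoplasmic reticulum (ER).

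The refed and the fasted libraries were deposited in separate count tables, so that feeding state and whatever else differs between the tables cannot be told apart in any refed against fasted difference below. Counts per library totalled 14148635 to 17969356 in refed knockouts and 14088040 to 18708646 in fasted knockouts. Mitochondrially encoded genes held no count in any refed library, against 5.05 to 6.50% of counts in fasted knockouts, and the 37 such genes were left out. The first principal component held 51.8% of the variance and separated every refed from every fasted library of both genotypes. Log2 fold change in knockouts also moved with gene length: its median was −0.20, −0.03, 0.10 and 0.23 in successive length classes of genes with a median exon length of 1653, 3310, 5225 and 8887 bases. The part of length in the results was not tested beyond the values given below. Ribosomal protein genes took 1.37 to 3.23% of counts in refed knockouts, with the highest share in replicate C, against 1.88 to 2.10% in fasted knockouts. Replicate D of the refed knockouts stood apart in glucose output and hormone-responsive genes, and the counts of those lists, and folds that move by over 1.5 times, are given without it as well. In whole liver, fewer cells of a type and less RNA per cell cannot be told apart.

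Refed knockouts differed from fasted ones in 47.9% of the expressed genes. Levels are CPM, read counts scaled to the library's total after TMM normalisation, listed in the order of replicates A to D for refed and A to E for fasted livers. Differences are log2 fold changes of refed over fasted livers with their standard errors, and CPM means are given with their SD over 4 refed and 5 fasted knockouts. A gene was said to rise or fall when its Benjamini-Hochberg adjusted p from the quasi-likelihood test of edgeR was under 0.05. Of 13779 genes tested, 3501 rose and 3094 fell in refed knockouts, which is 25.4% and 22.5% of the genes. With a change of at least 2-fold required as well, 1112 genes rose and 825 fell, or 8.07% and 5.99%. The median log2 fold change over all genes tested was 0.01. The labels list the mice as separate samples and do not say how litters or cages were spread. The p-values set each difference against the spread of livers within groups, estimated from the 19 libraries of both genotypes. They take no account of litter or cage.

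**Figure D1:**
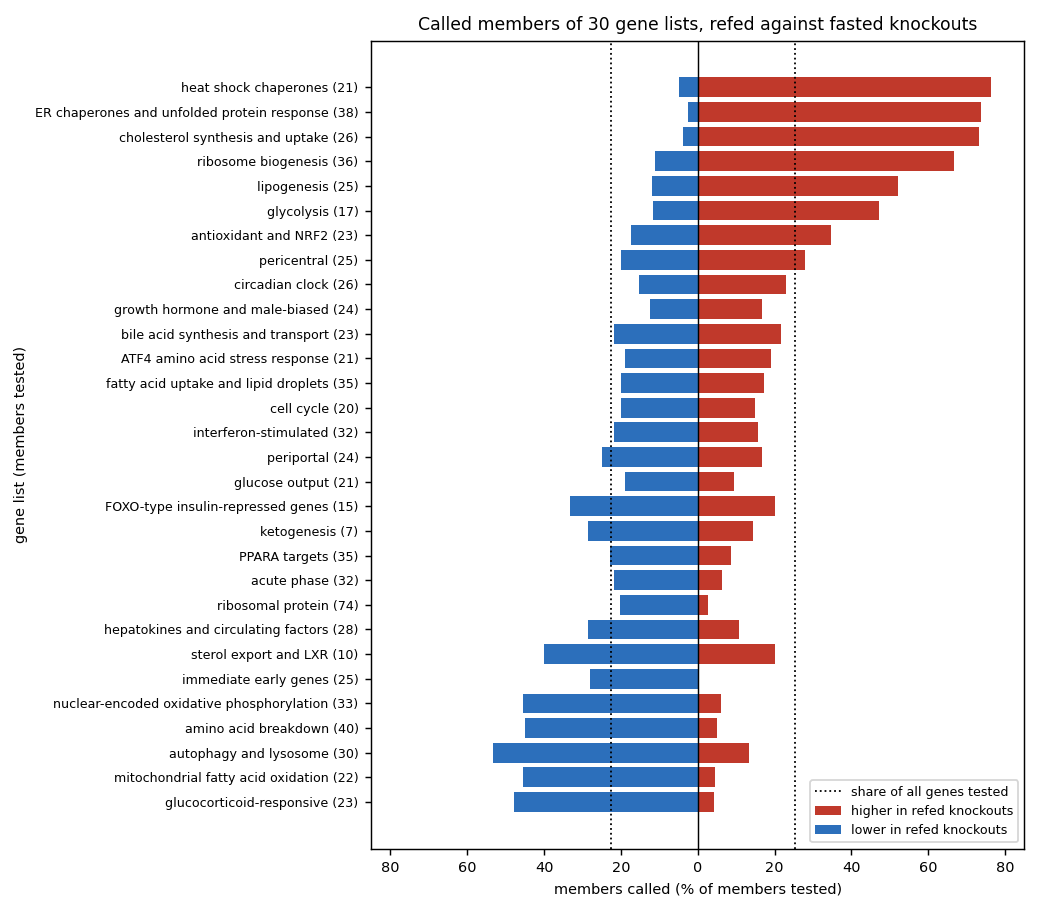
Share of each gene list that passed the test in refed against fasted Plvap knockouts, in percent of the members tested, higher to the right and lower to the left. The dotted lines mark the shares over all genes, 25.4% and 22.5%. Heat shock chaperones, ER chaperones and cholesterol synthesis reach farthest to the right, and autophagy, glucocorticoid-responsive genes and amino acid breakdown reach far to the left.

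Plvap itself was low in the knockouts in both feeding states. It had 5.09, 6.2, 4.21 and 6.33 CPM in refed knockouts, against 7.4, 4.71, 6.31, 5.12 and 6.0 CPM in fasted knockouts. The controls had 19.4, 21.4, 41.7 and 38.8 CPM in refed controls, against 23.2, 29.01, 25.7, 30.4, 36.4 and 33.6 CPM in fasted controls. Every knockout library was below every control library, and the refed and fasted knockouts overlapped. The change with refeeding did not pass the test (log2 fold change −0.12 ± 0.23, adjusted p = 0.698). The gene lies at GRCm39 chromosome 8, 71950409 to 71964396, on the coordinates of the deposited tables.

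Part of the genes that break glucose down were higher after food. Of 17 genes of glycolysis tested, 8 rose (47.1%, against 25.4% of all genes) and 2 fell (11.8%, against 22.5%). Their median log2 fold change was 0.24. Pklr, the liver pyruvate kinase, rose with 99.1 ± 20.2 CPM in refed and 38.5 ± 12.03 CPM in fasted knockouts (log2 fold change 1.36 ± 0.20, adjusted p = 1.15e-05). Eno1, an enolase, rose more modestly (log2 fold change 0.84 ± 0.12), as did Pfkl, the liver phosphofructokinase (0.46 ± 0.10). The 2 genes that fell were Khk, the ketohexokinase that starts fructose breakdown (−0.38 ± 0.14), and Tpi1, a triosephosphate isomerase (−0.30 ± 0.10), both named after their values were seen, and neither fell without refed replicate A.

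Lipogenesis had more rises than falls. Of 25 genes tested, 13 rose (52.0%, against 25.4% of all genes) and 3 fell (12.0%, against 22.5%). Their median log2 fold change was 0.47. Fasn, the fatty acid synthase, had 367, 519, 299 and 304 CPM in refed knockouts, against 69.4, 62.7, 27.1, 21.7 and 33.5 CPM in fasted knockouts. No library of one group reached the range of the other, and Fasn was among the 12 largest rises (log2 fold change 3.12 ± 0.32, adjusted p = 8.24e-07). Srebf1, the transcription factor of the lipogenic programme, had 110.1 ± 50.9 CPM in refed and 32.7 ± 10.8 CPM in fasted knockouts and rose (log2 fold change 1.75 ± 0.28, adjusted p = 7.27e-05). Acaca and Acacb, the acetyl-CoA carboxylases, rose by log2 fold changes of 1.78 ± 0.15 and 1.60 ± 0.20. Elovl6, which lengthens palmitate, rose by 1.86 ± 0.19 and Acly, which supplies cytosolic acetyl-CoA, by 1.23 ± 0.16. Thrsp, a cofactor of fatty acid synthesis, rose with 102 ± 20.2 CPM in refed and 33.8 ± 24.9 CPM in fasted knockouts (log2 fold change 1.60 ± 0.49, adjusted p = 0.0135). Scd1, the stearoyl-CoA desaturase, had 1883, 1635, 1124 and 1706 CPM in refed knockouts, against 8532, 1674, 2249, 1807 and 2772 CPM in fasted knockouts. The groups overlapped, and the highest value came from fasted replicate A. Scd1 fell in the fit of all libraries (log2 fold change −1.10 ± 0.40, adjusted p = 0.0304), but the call was lost in several alternatives, and without fasted replicate A its log2 fold change was −0.42 with an adjusted p of 0.11. The other members that fell, named after their values were seen, were Dgat1 (−0.51 ± 0.10), a triglyceride synthase, and Elovl5 (−0.42 ± 0.15), an elongase of polyunsaturated fatty acids. Without refed replicate B or D, 1 member fell in place of 3. Pnpla3 had too few counts to be tested.

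**Figure D2:**
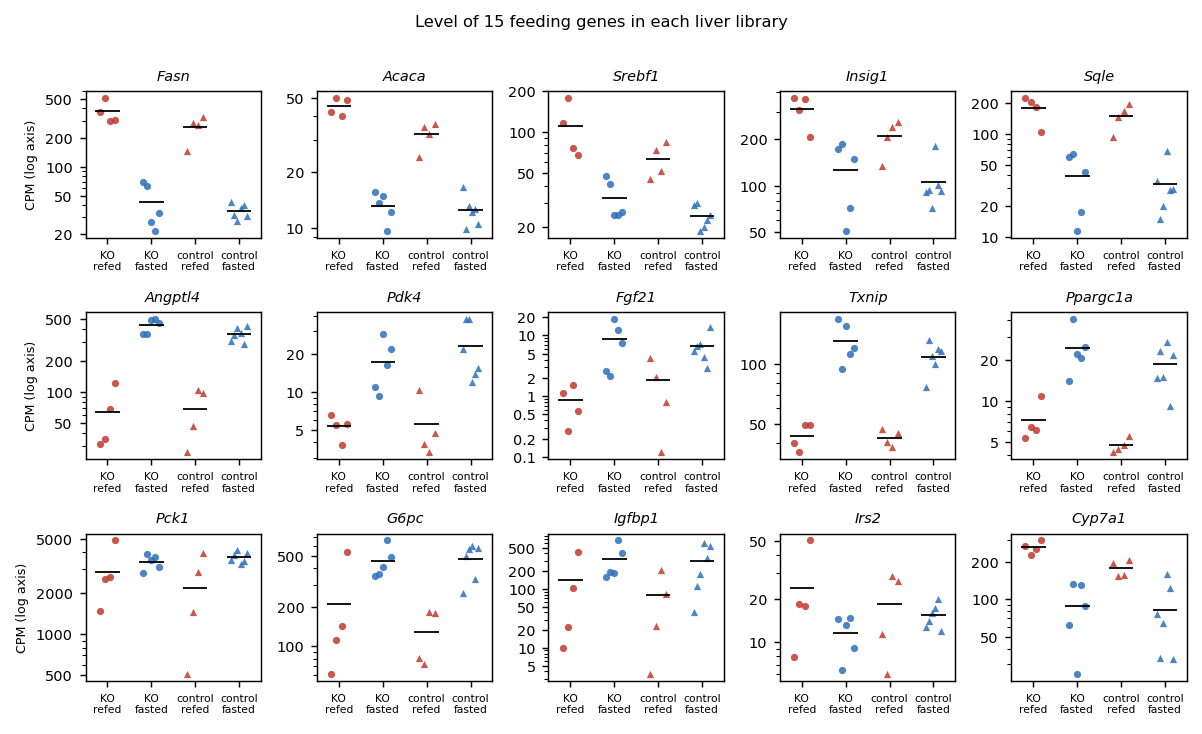
Levels of 15 genes of feeding and fasting in each library, in CPM on a log axis, for knockouts (circles) and controls (triangles), refed in red and fasted in blue, with the group mean as a black bar. Fasn, Acaca, Srebf1, Insig1, Sqle and Cyp7a1 lie higher in every refed than in any fasted knockout, Angptl4, Pdk4, Fgf21, Txnip and Ppargc1a lie lower in every one, and Pck1, G6pc, Igfbp1 and Irs2 overlap.

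The cholesterol pathway moved largely in the same direction. Of 26 tested genes of sterol synthesis and uptake, 19 rose and 1 fell, 73.1% of them higher against 25.4% of all genes, with a median log2 fold change of 1.26. The number that rose was 18 to 20 in all alternatives run. The largest rise of any gene named by size was Mvd, mevalonate diphosphate decarboxylase, with 109.9, 96.2, 108 and 31.6 CPM in refed knockouts, against 11.4, 10.2, 2.1, 3.55 and 10.2 CPM in fasted knockouts. The groups stood apart at Mvd (log2 fold change 3.53 ± 0.49, adjusted p = 2.35e-05). Sqle, the squalene epoxidase, had 225, 203, 183 and 105 CPM in refed knockouts, against 60.3, 63.6, 11.5, 17.5 and 42.6 CPM in fasted knockouts. Its groups did not overlap (log2 fold change 2.20 ± 0.49, adjusted p = 0.00162). Lss, the lanosterol synthase, had 80.4 ± 24.4 CPM in refed and 12.6 ± 3.76 CPM in fasted knockouts (log2 fold change 2.67 ± 0.28, adjusted p = 6.79e-07). Idi1, which isomerises the isoprene unit, rose as well (2.77 ± 0.48).

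Genes of sterol sensing rose beside the enzymes. Srebf2, the transcription factor of the pathway, rose by a log2 fold change of 1.03 ± 0.15, and Insig1, which holds SREBP proteins in the ER, by 1.31 ± 0.35. Ggps1, which makes the isoprenoid used to prenylate proteins, was the member that fell (−0.38 ± 0.15), and it was named after its value was seen. Its call was lost without refed replicate B or D, or without fasted replicate A, B or D. Genes of sterol export were divided. Abcg5 and Abcg8, the transporters that move sterol into bile, fell with log2 fold changes of −1.03 ± 0.18 and −0.90 ± 0.19. Of the 10 genes of sterol export and LXR response tested, 4 fell and 2 rose, and Lpcat3 (−0.88 ± 0.12), a phospholipid-remodelling enzyme, and Mylip (−0.53 ± 0.12), a ubiquitin ligase, were among those that fell. The share that fell was above the 22.5% of all genes, and the share that rose was below the 25.4% of all genes. In several alternatives 1 rose in place of 2, among them removal of the length trend and the fit without refed replicate C.

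Genes of protein folding in the ER held 5 of the 12 largest rises. Of 38 tested members of the ER chaperone and unfolded protein response list, 28 rose and 1 fell, 73.7% of them higher against 25.4% of all genes, with a median log2 fold change of 1.02. In 26 members the 4 refed and 5 fasted libraries did not overlap, as in 35.0% of all genes tested. The number that rose was 26 to 30 in all alternatives run, which include removal of the length trend. Summed over the list, the libraries had 17144 to 19752 CPM in refed knockouts, against 5705 to 10221 CPM in fasted knockouts. Hspa5, the ER chaperone BiP, had 3992, 4395, 4231 and 4109 CPM in refed knockouts, against 778, 814, 1024, 1216 and 2124 CPM in fasted knockouts. Refed values were tightly grouped and fasted values spread more widely, with replicate E the highest of them, and Hspa5 rose (log2 fold change 1.81 ± 0.27, adjusted p = 2.12e-05).

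The largest change of the list was that of Syvn1. Syvn1, the ubiquitin ligase of ER-associated degradation, had 482, 582, 501 and 807 CPM in refed knockouts, against 41.4, 43.8, 62.5, 48.3 and 102 CPM in fasted knockouts. Sel1l, its partner, rose with 350 ± 76.3 CPM in refed and 90.6 ± 19.4 CPM in fasted knockouts (log2 fold change 1.95 ± 0.16, adjusted p = 1.27e-08). The 2 groups did not overlap at either gene, and the log2 fold change of Syvn1 was 3.32 ± 0.26 (adjusted p = 1.64e-08). Creld2, an ER-resident protein induced by misfolding, had 558, 627, 675 and 634 CPM in refed knockouts, against 24.5, 30.5, 40.4, 46.4 and 184 CPM in fasted knockouts. Creld2 rose (log2 fold change 3.25 ± 0.50, adjusted p = 5.72e-05), with fasted replicate E well above the other fasted livers, and its log2 fold change was 4.16 without that liver. Derl3 (3.30 ± 0.45), which helps misfolded proteins leave the ER, Sdf2l1 (2.89 ± 0.43), a BiP cofactor, Hyou1 (2.77 ± 0.30), a nucleotide exchange factor of BiP, Pdia4 (2.55 ± 0.23), a disulphide isomerase, and Wfs1 (2.43 ± 0.17), the wolframin of the ER membrane, also rose without overlap. Mydgf, a secreted growth factor kept in the ER, was the member that fell (−0.31 ± 0.12) and was named after its value was seen. Its call was lost in most of the fits that left out 1 library. Xbp1, Herpud1 and Atf3 were among the 9 members that did not pass the test. Ddit3, the CHOP factor of prolonged ER stress, had 41.3, 33.2, 29.9 and 6.45 CPM in refed knockouts, against 5.59, 5.86, 8.85, 4.71 and 14.9 CPM in fasted knockouts. It rose with overlapping groups (log2 fold change 1.79 ± 0.44, adjusted p = 0.00318).

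Promoters of 5 ER genes that rose and of Hmgcs1 are shown because each carries an element known for its pathway. The ER stress response element was searched as CCAAT, 9 bases of any kind, and CCACG, on both strands of the RefSeq promoters (GRCm38.p6, 250 bases before to 50 bases after the gene start). It was found at 37 of 27025 genes with a promoter, or 0.137%, and at 10 of the 31 matched genes of the ER list, or 32.3%: Calr, Canx, Creld2, Derl3, Dnajc3, Ero1b, Hsp90b1, Hspa5, Pdia6 and Syvn1. All 10 rose in refed knockouts, by log2 fold changes of 0.51 ± 0.11 at Canx to 3.32 ± 0.26 at Syvn1. In the whole ER list, with or without the element, 28 of 38 tested members rose (73.7%). A link between the element and the rise was not tested. The sterol regulatory element was searched as TCACCCCAC on both strands. It was found at 166 of the 27025 genes, or 0.614%, and at 1 of the 18 matched genes of the cholesterol list, or 5.56%. That gene was Hmgcs1, which encodes the synthase that starts the pathway and rose by 1.75 ± 0.40. A match is a description of these letters in this window and does not show binding. The sequences follow 5′ to 3′ on the strand of the gene, with the 2 ends of the ER element or the sterol element in capitals, and with coordinates on GRCm38.p6.
Hspa5 (chr2:34771840-34772139, strand +): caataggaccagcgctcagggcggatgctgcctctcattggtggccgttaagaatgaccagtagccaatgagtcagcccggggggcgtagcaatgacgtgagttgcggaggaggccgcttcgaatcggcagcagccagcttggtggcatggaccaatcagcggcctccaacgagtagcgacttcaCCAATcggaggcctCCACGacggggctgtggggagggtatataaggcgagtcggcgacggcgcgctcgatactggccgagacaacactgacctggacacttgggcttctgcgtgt
Creld2 (chr15:88819396-88819695, strand +): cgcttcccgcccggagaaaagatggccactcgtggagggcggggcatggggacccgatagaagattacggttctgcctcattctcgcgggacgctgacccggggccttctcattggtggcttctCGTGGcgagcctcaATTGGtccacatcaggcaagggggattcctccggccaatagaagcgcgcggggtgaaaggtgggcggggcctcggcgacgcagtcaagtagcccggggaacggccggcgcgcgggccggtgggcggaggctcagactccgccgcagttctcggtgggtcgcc
Syvn1 (chr19:6046326-6046625, strand +): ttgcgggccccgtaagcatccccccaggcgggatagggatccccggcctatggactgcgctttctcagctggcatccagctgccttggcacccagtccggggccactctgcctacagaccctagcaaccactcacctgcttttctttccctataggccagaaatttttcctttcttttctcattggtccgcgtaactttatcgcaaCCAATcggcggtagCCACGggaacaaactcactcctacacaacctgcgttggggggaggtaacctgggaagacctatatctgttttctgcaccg
Derl3 (chr10:75893148-75893447, strand +): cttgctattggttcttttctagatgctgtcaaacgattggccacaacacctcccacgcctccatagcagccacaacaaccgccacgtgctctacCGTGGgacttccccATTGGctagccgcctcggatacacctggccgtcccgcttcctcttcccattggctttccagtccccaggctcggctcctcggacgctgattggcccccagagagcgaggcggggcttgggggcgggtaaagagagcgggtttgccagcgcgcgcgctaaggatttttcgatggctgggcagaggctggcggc
Hsp90b1 (chr10:86705395-86705694, strand -): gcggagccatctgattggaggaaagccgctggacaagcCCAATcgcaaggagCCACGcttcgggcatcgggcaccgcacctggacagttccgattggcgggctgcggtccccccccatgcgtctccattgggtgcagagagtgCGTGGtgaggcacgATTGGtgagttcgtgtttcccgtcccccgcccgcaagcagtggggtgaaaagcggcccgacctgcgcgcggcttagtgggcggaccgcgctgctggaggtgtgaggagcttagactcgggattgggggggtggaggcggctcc
Hmgcs1 (chr13:119690101-119690400, strand +): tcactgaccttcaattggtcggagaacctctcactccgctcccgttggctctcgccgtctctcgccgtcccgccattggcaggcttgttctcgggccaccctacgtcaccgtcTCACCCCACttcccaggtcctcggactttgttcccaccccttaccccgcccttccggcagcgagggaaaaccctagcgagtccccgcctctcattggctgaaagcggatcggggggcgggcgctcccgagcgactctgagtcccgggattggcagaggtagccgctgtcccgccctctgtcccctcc
The element began 65 bases before the start at Hspa5, 126 at Creld2, 44 at Syvn1, 156 at Derl3, and 212 and 107 at Hsp90b1, where it occurs in 2 places. At Creld2, Derl3 and the second place of Hsp90b1 it lies on the opposite strand, so that the capitals read CGTGG and ATTGG. The sterol element of Hmgcs1 began 137 bases before the start.

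**Figure D3:**
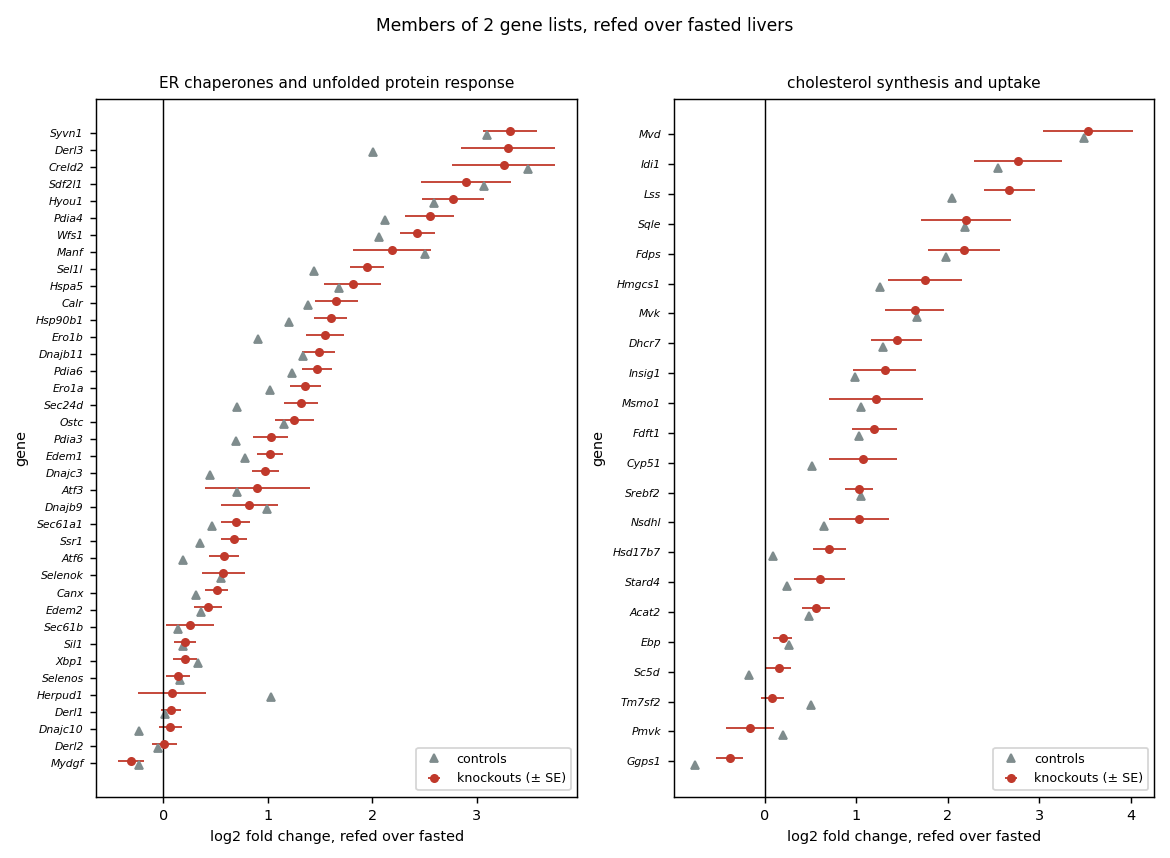
Log2 fold changes of refed over fasted livers for members of the ER list and for part of the cholesterol list, as points with standard errors for knockouts and as triangles for controls, ordered by size. Nearly all points of both lists lie to the right of 0, with Syvn1, Derl3, Creld2 and Mvd above 3.

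Chaperones of the cytosol and of mitochondria rose alongside. Of 21 heat shock genes tested, 16 rose (76.2%, against 25.4% of all genes) and 1 fell (4.76%, against 22.5%). Their median log2 fold change was 1.10. Hsp90ab1, the constitutive cytosolic HSP90, had 1814, 1769, 1755 and 2610 CPM in refed knockouts, against 641, 546, 558, 506 and 985 CPM in fasted knockouts. The groups stood apart, and it rose (log2 fold change 1.62 ± 0.19, adjusted p = 6.35e-07). Its co-chaperones Fkbp4 and Stip1 rose by 1.51 ± 0.11 and 1.49 ± 0.15, and Hspa8, the constitutive HSP70, by 1.20 ± 0.16. Hspb1, a small heat shock protein, had 26.98, 27.4, 38.6 and 109 CPM in refed knockouts, against 4.47, 4.95, 8.05, 4.98 and 13.3 CPM in fasted knockouts. It rose (log2 fold change 2.81 ± 0.46, adjusted p = 0.000112), with refed replicate D the highest, and by 2.10 on the log2 scale without it. Hspb8, named after its value was seen, was the member that fell (−0.71 ± 0.16). The near-identical copies Hspa1a and Hspa1b, which share reads, did not pass the test.

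Genes that make ribosomes were mostly higher after food, while the counts for ribosomal protein genes depended on single libraries. Of 36 ribosome biogenesis genes tested, 24 rose (66.7%, against 25.4% of all genes) and 4 fell (11.1%, against 22.5%). Their median log2 fold change was 0.51. Polr1a, the largest subunit of RNA polymerase I, had 32.3, 32.05, 23.8 and 26.4 CPM in refed knockouts, against 11.5, 12.4, 11.5, 10.3 and 10.7 CPM in fasted knockouts. Its groups did not overlap (log2 fold change 1.34 ± 0.12, adjusted p = 2.9e-08). Rrp12 (1.72 ± 0.17), Nop56 (1.35 ± 0.13) and Bysl (1.33 ± 0.13), which act in processing and export of ribosomal subunits, rose as well. Cad, the enzyme of the first steps of pyrimidine synthesis, had 36.9, 45.4, 43.4 and 52.4 CPM in refed knockouts, against 3.56, 3.63, 5.22, 3.07 and 4.25 CPM in fasted knockouts. It was among the 12 largest rises (log2 fold change 3.49 ± 0.18, adjusted p = 9.46e-12). Ccnd1, the cyclin D1 that links growth signals to the cell cycle, had 50.6, 55.6, 67.8 and 36.6 CPM in refed knockouts, against 10.8, 6.69, 8.56, 5.8 and 8.93 CPM in fasted knockouts. It rose (log2 fold change 2.69 ± 0.23, adjusted p = 2.97e-08), while of the 20 cell cycle genes tested 3 rose and 4 fell, or 2 fell without refed replicate B or fasted replicate A. Both shares of the cell cycle list lay below those of all genes in the reported fit. Atp2b2, a plasma membrane calcium pump, was a further large rise (8.08 ± 2.87 CPM in refed and 0.877 ± 0.41 CPM in fasted knockouts; log2 fold change 3.21 ± 0.35). Of 74 ribosomal protein genes, 2 rose (2.70%) and 15 fell (20.3%), with a median log2 fold change of −0.09. The number that fell depended on single libraries: 35 fell without refed replicate C, whose summed level of 32091 CPM was the highest, while 9 fell and 6 rose without refed replicate B. With the trend over gene length removed, 15 ribosomal protein genes rose instead of 2.

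Glucose output gave fewer calls than the anabolic genes, and 1 refed liver stood apart. Of 21 genes tested, 2 rose and 4 fell, with a median log2 fold change of −0.24. In the reported fit both shares lay below those of all genes, of which 25.4% rose and 22.5% fell. G6pc, glucose-6-phosphatase, which releases glucose to the blood, had 61.2, 111, 144 and 533 CPM in refed knockouts, against 349.8, 361, 408.9, 659 and 489 CPM in fasted knockouts. Refed replicate D lay within the fasted range, and the other 3 refed livers lay below it. The change did not pass the test (log2 fold change −1.09 ± 0.52, adjusted p = 0.0918). Without refed replicate D G6pc fell, with a log2 fold change of −2.10 and an adjusted p of 0.000554, and it also fell with a replicate block (−1.49, adjusted p = 0.00459) and with limma-voom (−1.54, adjusted p = 0.0181). Pck1, phosphoenolpyruvate carboxykinase, had 1474, 2526, 2625 and 4859 CPM in refed knockouts, against 2789, 3848, 3473, 3667 and 3112 CPM in fasted knockouts. Refed replicate D was the highest of all 9 livers, and the change did not pass the test (log2 fold change −0.23 ± 0.40, adjusted p = 0.656), nor did it without replicate D (−0.61, adjusted p = 0.242). Ppargc1a, the coactivator PGC-1α of gluconeogenesis, had 5.33, 6.46, 6.07 and 10.9 CPM in refed knockouts, against 14.1, 40.5, 22.2, 20.8 and 24.98 CPM in fasted knockouts. It fell without overlap (log2 fold change −1.76 ± 0.32, adjusted p = 0.00017; −2.04 without refed replicate D). Got1, a transaminase of the malate shuttle, fell with a log2 fold change of −1.34 ± 0.23, and Creb3l3, a liver transcription factor active in fasting, with one of −0.51 ± 0.11. Without refed replicate D, 9 of the 21 genes fell rather than 4, and 7 fell with limma-voom and in the fit of all 8 groups.

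Genes held down by insulin through FOXO factors were divided. Of 15 tested, 3 rose and 5 fell, while 7 fell without refed replicate D and 8 with replicate letters as a block. In the reported fit the share that fell, 33.3%, was above the 22.5% of all genes. The share that rose was below the 25.4% of all genes. Igfbp1, a binding protein for insulin-like growth factors that insulin represses, had 9.83, 22.4, 102 and 424.4 CPM in refed knockouts, against 159.9, 196, 184, 662 and 406.7 CPM in fasted knockouts. Refed replicate D was the highest refed value by far, and the change did not pass the test (log2 fold change −1.20 ± 1.12, adjusted p = 0.399), nor did it without replicate D (−2.84, adjusted p = 0.0737). With a replicate block it passed (−2.22, adjusted p = 0.0404). Irs2, an insulin receptor substrate, had 7.9, 18.3, 17.8 and 50.7 CPM in refed knockouts, against 14.5, 6.44, 13.1, 14.7 and 9.18 CPM in fasted knockouts. Its groups overlapped (log2 fold change 1.03 ± 0.48, adjusted p = 0.0874), and the log2 fold change was 0.34 without refed replicate D and 1.32 without refed replicate A, where Irs2 rose (adjusted p = 0.0271). Txnip, which limits glucose uptake, had 43.5 ± 6.82 CPM in refed and 129.9 ± 30.5 CPM in fasted knockouts and fell (log2 fold change −1.58 ± 0.17, adjusted p = 1.77e-07). Pdk4, a kinase that shuts pyruvate dehydrogenase in fasting, had 5.35 ± 1.16 CPM in refed and 17.4 ± 7.93 CPM in fasted knockouts and fell (log2 fold change −1.70 ± 0.45, adjusted p = 0.00508). Gadd45a, a growth arrest gene, was the largest rise of the list (2.34 ± 0.40).

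PPARA targets fell about as often as all genes in the reported fit and rose less often. Of 35 targets, 3 rose (8.57%, against 25.4% of all genes) and 8 fell (22.9%, against 22.5%). Their median log2 fold change was −0.25. The number that fell was 6 to 12 over the alternatives run, with 12 under DESeq2 and 10 with the length trend removed. When fasted replicate C was left out, 7 rose. In controls 17 of the 35 fell and 3 rose. Angptl4, a secreted inhibitor of lipoprotein lipase, had 31.3, 35.5, 68.9 and 121 CPM in refed knockouts, against 362, 363, 491, 502 and 463 CPM in fasted knockouts. It fell without overlap (log2 fold change −2.77 ± 0.42, adjusted p = 5.14e-05). Fgf21, a hormone of the fasted liver, had 1.11, 0.264, 1.55 and 0.566 CPM in refed knockouts, against 2.58, 2.15, 18.6, 12.4 and 7.62 CPM in fasted knockouts. Fgf21 fell (log2 fold change −3.30 ± 0.83, adjusted p = 0.00377), with a wide spread among fasted livers. Plin2, the coat protein of lipid droplets, had 356, 320.3, 239 and 233 CPM in refed knockouts, against 786, 397, 1440, 656 and 766 CPM in fasted knockouts. It fell (log2 fold change −1.50 ± 0.29, adjusted p = 0.000357). Ppara itself rose (0.70 ± 0.12), as did Retsat (0.83 ± 0.17), a retinol saturase. Cyp4a14, a fatty acid hydroxylase and classical PPARA target, had 2983 ± 273 CPM in refed and 2892 ± 1134 CPM in fasted knockouts and did not pass the test (log2 fold change 0.04 ± 0.23, adjusted p = 0.887).

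Mitochondrial fatty acid oxidation fell modestly in part of its genes. Of 22 tested, 1 rose (4.55%, against 25.4% of all genes) and 10 fell (45.5%, against 22.5%). Their median log2 fold change was −0.23. The number that fell was 6, 5 and 6 when refed replicate D, fasted replicate C or fasted replicate E was left out. Slc22a5, the carnitine importer, had 20.8 ± 2.64 CPM in refed and 39.8 ± 11.5 CPM in fasted knockouts (log2 fold change −0.94 ± 0.19, adjusted p = 0.000397). Etfa and Etfb, which pass electrons from the oxidation enzymes, fell with log2 fold changes of −0.52 ± 0.10 and −0.56 ± 0.11, and Eci2, an enoyl-CoA isomerase, with one of −0.64 ± 0.12. Cpt1a, the gate of fatty acid entry into mitochondria, had 370.1 ± 88.2 CPM in refed and 407.3 ± 44.8 CPM in fasted knockouts and did not pass the test (log2 fold change −0.14 ± 0.14, adjusted p = 0.444), except with the length trend removed (adjusted p = 0.041). Of 7 ketogenesis genes 1 rose (14.3%) and 2 fell (28.6%), and without refed replicate B or D, or without fasted replicate C, D or E, 1 fell. Slc16a6, a transporter of ketone bodies, was the one that rose (1.57 ± 0.30). Lipc, the hepatic lipase, fell with 90.3 ± 15.01 CPM in refed and 204 ± 33.3 CPM in fasted knockouts (log2 fold change −1.18 ± 0.13, adjusted p = 3.36e-07), in a list of 35 genes for the uptake and droplet storage of fatty acids in which 6 rose and 7 fell. Both shares of that list lay below those of all genes in the reported fit.

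Amino acid breakdown was lower after food. Of 40 genes tested, 18 fell and 2 rose, 45.0% of them lower against 22.5% of all genes, with a median log2 fold change of −0.37. Slc25a47, a mitochondrial carrier found in hepatocytes, had 179.9, 163, 234 and 329.5 CPM in refed knockouts, against 1420, 1008, 1814, 1889 and 1685 CPM in fasted knockouts. It fell in every refed library below the lowest fasted one (log2 fold change −2.78 ± 0.29, adjusted p = 3.48e-07). Sds, serine dehydratase, had 109 ± 30.4 CPM in refed and 356 ± 120.2 CPM in fasted knockouts (log2 fold change −1.71 ± 0.25, adjusted p = 1.65e-05). Tdo2, which opens the tryptophan ring, had 1566 ± 183 CPM in refed and 3173 ± 525 CPM in fasted knockouts (log2 fold change −1.02 ± 0.14, adjusted p = 4.45e-06). Aass, of lysine breakdown, fell with a log2 fold change of −1.13 ± 0.15 and Otc, of the urea cycle, with one of −0.80 ± 0.11. Tat, tyrosine aminotransferase, had 1980, 2296, 2192 and 4119 CPM in refed knockouts, against 1538, 2569, 1428, 3220 and 3640 CPM in fasted knockouts. Its groups overlapped, and it did not pass the test (log2 fold change 0.09 ± 0.37, adjusted p = 0.854), nor did it without refed replicate D (−0.20, adjusted p = 0.699). Of all genes 25.4% rose and 22.5% fell. In the reported fit the amino acid stress response driven by ATF4 had lower shares, as 4 of its 21 genes rose and 4 fell. Among them Trib3, a pseudokinase, fell (−0.93 ± 0.28), and Asns, asparagine synthetase, did not pass the test (log2 fold change −0.87 ± 0.50, adjusted p = 0.158) unless fasted replicate A was left out (−1.12, adjusted p = 0.0431).

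Autophagy and lysosome genes went in the same direction. Of 30 tested, 16 fell and 4 rose, 53.3% of them lower against 22.5% of all genes, with a median log2 fold change of −0.41. Gabarapl1, which tags autophagosome membranes, had 297, 253, 277 and 216 CPM in refed knockouts, against 549, 489, 660.1, 501 and 544 CPM in fasted knockouts. It fell without overlap (log2 fold change −1.07 ± 0.11, adjusted p = 1.38e-07). Lamp2, a lysosomal membrane protein, had 720.5 ± 34.2 CPM in refed and 1490.4 ± 206 CPM in fasted knockouts (log2 fold change −1.05 ± 0.13, adjusted p = 8.25e-07). Ctsd, a lysosomal protease, fell with a log2 fold change of −1.07 ± 0.13 and Bnip3l, a mitophagy receptor, with one of −1.20 ± 0.15. The 4 members that rose, named after their values were seen, were Atg9a (1.25 ± 0.17), Depdc5 (0.72 ± 0.18), Tfe3 (0.60 ± 0.12) and Atg2a (0.51 ± 0.13).

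Genes that respond to glucocorticoids were lower in the refed knockouts. Of 23 tested, 11 fell and 1 rose, or 12 and 1 without refed replicate D. Of the members 47.8% were lower against 22.5% of all genes, with a median log2 fold change of −0.84. Klf9, a direct target of the glucocorticoid receptor, had 98.5 ± 41.03 CPM in refed and 329 ± 49.9 CPM in fasted knockouts. It fell without overlap (log2 fold change −1.74 ± 0.22, adjusted p = 2.51e-06; −2.06 without refed replicate D). Cdkn1a, the cell cycle inhibitor p21, had 5.27, 4.29, 6.68 and 8.09 CPM in refed knockouts, against 9.78, 52.2, 30.3, 50.7 and 66.6 CPM in fasted knockouts. Cdkn1a fell without overlap (log2 fold change −2.78 ± 0.60, adjusted p = 0.00128). Hsd11b1, which regenerates active glucocorticoid, fell with 478 ± 57.2 CPM in refed and 892 ± 109 CPM in fasted knockouts (log2 fold change −0.90 ± 0.12, adjusted p = 2.12e-06). Mt1 and Mt2 encode metallothioneins, close copies that can share reads. Mt1 had 53.4, 92.3, 71.99 and 309.6 CPM in refed knockouts, against 1196, 1782, 438, 1883 and 1543 CPM in fasted knockouts. Mt2 had 5.97, 12.3, 7.86 and 105 CPM in refed knockouts, against 289.8, 589, 119, 555 and 394 CPM in fasted knockouts. At both genes replicate D was the highest refed liver and still lay below every fasted one, and both fell (log2 fold change −3.38 ± 0.83 with an adjusted p of 0.00344 for Mt1, and −3.57 ± 1.14 with 0.0173 for Mt2). Without refed replicate D the log2 fold change was −4.24 for Mt1 and −5.48 for Mt2, and without refed replicate B the adjusted p of Mt2 was 0.0517. Neither Fkbp5 nor Tsc22d3 nor Per1, which also respond to glucocorticoids, passed the test.

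Immediate early genes had falls and no rise. Of 25 tested, 7 fell and 0 rose, 28% of them lower against 22.5% of all genes, with a median log2 fold change of −0.38. With DESeq2 1 member rose, as did 1 without a filter on low counts and in the fit of the 9 knockout libraries, and 10 fell without refed replicate D. Gadd45g, a stress-induced growth arrest gene, had 11.4, 3.96, 5.26 and 32.1 CPM in refed knockouts, against 16.3, 105, 29.5, 187 and 104 CPM in fasted knockouts. It fell with overlapping groups (log2 fold change −2.74 ± 0.76, adjusted p = 0.00765), with a log2 fold change of −3.67 without refed replicate D. Gadd45b (−2.21 ± 0.32), Klf10 (−1.44 ± 0.34) and Klf2 (−0.98 ± 0.17), transcriptional or stress regulators, fell as well.

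Growth hormone signalling, the clock and bile acid synthesis each had members among the larger changes. Socs2, the feedback inhibitor of growth hormone signalling, had 17.6, 8.24, 5.26 and 2.38 CPM in refed knockouts, against 43.7, 70.1, 63.8, 72.97 and 47.7 CPM in fasted knockouts. It fell (log2 fold change −2.83 ± 0.71, adjusted p = 0.00387; −3.50 without refed replicate A), as did Igf1, the growth factor that growth hormone induces in liver (484 ± 46.5 CPM in refed and 759 ± 97.4 CPM in fasted knockouts; −0.65 ± 0.12). Stat5a rose by 1.39 ± 0.22, and of 24 growth hormone and male-biased genes tested 4 rose and 3 fell (5 fell with DESeq2 and in the fit of all 8 groups, 6 with a replicate block), with Cyp4a12a and Cyp4a12b, near-identical copies, among those that rose. Rgs16, a regulator of G protein signalling, had 0.41, 2.11, 2.48 and 8.26 CPM in refed knockouts, against 31.5, 39.8, 13.6, 44.8 and 10.2 CPM in fasted knockouts. It fell (log2 fold change −3.06 ± 0.85, adjusted p = 0.00732), with a log2 fold change of −4.08 without refed replicate D. Per2, a repressor of the clock that also responds to feeding, had 39.5, 46.5, 23.5 and 40.3 CPM in refed knockouts, against 11.1, 8.59, 4.14, 5.87 and 7.12 CPM in fasted knockouts. Per2 rose without overlap (log2 fold change 2.35 ± 0.28, adjusted p = 2.13e-06), and of 26 clock genes tested 6 rose and 4 fell, or 2 fell without refed replicate A, refed replicate B or fasted replicate B. Wee1, a clock-controlled kinase, rose by 1.56 ± 0.30 and Rora, a nuclear receptor of the clock, fell with a log2 fold change of −0.77 ± 0.16. Cyp7a1, the rate-limiting enzyme of bile acid synthesis, had 269.8, 226, 254 and 298 CPM in refed knockouts, against 61.8, 134, 24.96, 132 and 88.6 CPM in fasted knockouts. It rose without overlap (log2 fold change 1.57 ± 0.47, adjusted p = 0.0114), and Baat, which conjugates bile acids, fell (−0.76 ± 0.13). Of 23 bile acid genes 5 rose and 5 fell, while 8 fell without refed replicate D, and 3 fell without refed replicate B, refed replicate C or fasted replicate B. In the fit of the 9 knockout libraries 3 rose and 8 fell, with the length trend removed 3 rose, and in the fit of all 8 groups 2 rose. Members higher and lower were 16.7% and 12.5% for growth hormone, 23.1% and 15.4% for the clock and 21.7% and 21.7% for bile acids. All genes gave 25.4% and 22.5%.

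Secreted proteins and genes of liver zones were mixed. Of 32 acute phase genes 7 fell and 2 rose, or 4 rose without refed replicate C or fasted replicate E. Fgb, a fibrinogen chain, had 3152 ± 613 CPM in refed and 6049 ± 1023 CPM in fasted knockouts (log2 fold change −0.94 ± 0.22, adjusted p = 0.00118), and Crp, a pentraxin, fell with a log2 fold change of −0.69 ± 0.13, while Cfb, complement factor B, rose by 1.49 ± 0.20. Tsku, a secreted protein of the liver, rose with 174 ± 51.6 CPM in refed and 53.05 ± 17.6 CPM in fasted knockouts (log2 fold change 1.71 ± 0.27, adjusted p = 4.96e-05). Of 25 genes of the pericentral zone 7 rose and 5 fell, or 2 to 3 fell without refed replicate A or B or fasted replicate B or E. Of 24 periportal genes 4 rose and 6 fell. Cyp2e1, a pericentral cytochrome P450, fell with a log2 fold change of −0.60 ± 0.13, and the Wnt target Rnf43 rose by 1.23 ± 0.24. Of 32 interferon-stimulated genes 5 rose and 7 fell, with Irf7, an interferon-responsive transcription factor, at 45.7 ± 10.97 CPM in refed and 98.4 ± 11.9 CPM in fasted knockouts (log2 fold change −1.11 ± 0.15, adjusted p = 3.83e-06). Of 23 antioxidant genes 8 rose and 4 fell, with a rise of Txnrd1 (0.75 ± 0.11), a thioredoxin reductase, beside a fall of Nfe2l2 (−0.74 ± 0.12), which encodes NRF2. For comparison, 25.4% of all genes rose and 22.5% fell. Among the lists of this paragraph, only the periportal genes had a larger share of falls in the reported fit. Only the pericentral and antioxidant genes had a larger share of rises.

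Part of the markers of nonparenchymal cells also differed between refed and fasted knockouts. Kupffer cell and macrophage markers summed to 804 to 884 CPM in refed knockouts, against 1156 to 1565 CPM in fasted knockouts. In this list 10 of 16 fell (62.5%, against 22.5% of all genes) and 1 rose (6.25%, against 25.4%). Clec4f, a lectin of Kupffer cells, had 108, 125, 124 and 108 CPM in refed knockouts, against 285, 256, 308, 275 and 352 CPM in fasted knockouts. It fell without overlap (log2 fold change −1.35 ± 0.14, adjusted p = 2.18e-07), as did Cd5l, a macrophage-secreted protein (−1.51 ± 0.18), and the complement genes C1qa (−1.16 ± 0.15) and C1qb (−0.98 ± 0.13). Markers of stellate cells, the cells targeted by the deletion, summed to 523 to 584 CPM in refed knockouts, against 626 to 684 CPM in fasted knockouts. Of 20 stellate markers 7 rose (35.0%), among them Col1a1 (1.64 ± 0.26) and Nes (2.10 ± 0.37), and 2 fell (10.0%), Rgs5 (−0.81 ± 0.14) and Dcn (−0.75 ± 0.14). Endothelial markers summed to 522 to 682 CPM in refed knockouts, against 481 to 571 CPM in fasted knockouts, with 9 of 20 higher (45.0%) and 2 lower (10.0%). Hepatocyte markers summed to 122429 to 133174 CPM in refed knockouts, against 111416 to 144164 CPM in fasted knockouts, so the libraries carry the markers of the labelled tissue. Lymphocyte markers summed to 25.2 to 29.03 CPM in refed knockouts, against 35.8 to 49.9 CPM in fasted knockouts, with 2 of 9 lower, or 4 without refed replicate C and 1 with the length trend removed or in the fit of all 8 groups. The 22.2% of lymphocyte markers that fell lay near the 22.5% of all genes. Neutrophil markers summed to 2.34 to 14.3 CPM in refed knockouts, against 6.46 to 56.96 CPM in fasted knockouts. The part of cell composition in the changes of other genes was not tested.

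**Figure D4:**
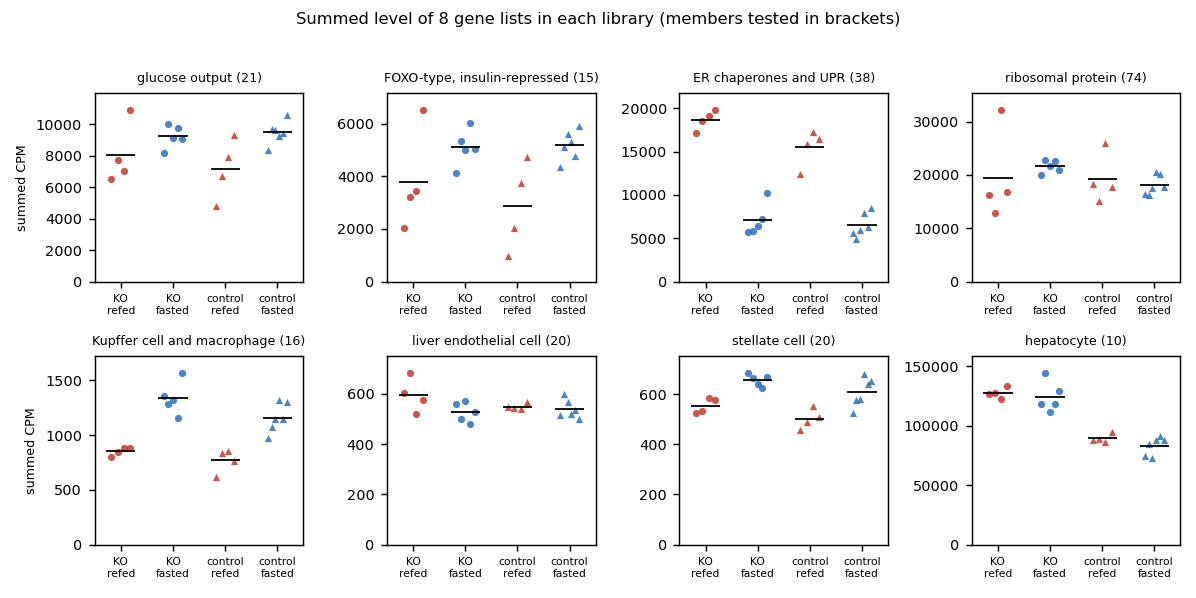
Summed CPM of gene and marker lists in each library, for knockouts (circles) and controls (triangles), refed in red and fasted in blue, with the group mean as a black bar. The ER list is higher in every refed than in any fasted knockout, Kupffer cell markers are lower in every refed one, and the sums for glucose output overlap through refed replicate D.

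Some of the largest falls lie in genes that share sequence with near-identical copies or repeats, and their values are uncertain. H2-Q7, a nonclassical major histocompatibility gene with close copies, had 1.93, 2.77, 2.6 and 1.13 CPM in refed knockouts, against 38.3, 42.1, 35.7, 33.5 and 37.5 CPM in fasted knockouts. Lars2, a mitochondrial leucyl-tRNA synthetase, had 133, 162, 77.6 and 275 CPM in refed knockouts, against 924, 1023, 1042, 1001 and 800.1 CPM in fasted knockouts. Mir6236 had 1.12 ± 0.306 CPM in refed and 7.64 ± 1.05 CPM in fasted knockouts. All 3 fell without overlap in the knockouts (log2 fold changes −4.16 ± 0.20, −2.57 ± 0.27 and −2.76 ± 0.28) and fell in the controls too (−3.52, −2.98 and −2.30). The major urinary protein copies went in opposite directions, with Mup13 lower (−3.01 ± 0.67) and Mup-ps19 higher (2.77 ± 0.48, or 2.11 without refed replicate C), and they are uncertain for the same reason as H2-Q7. Genes of oxidative phosphorylation were lower in part: 15 of 33 nuclear-encoded genes fell (45.5%, against 22.5% of all genes) and 2 rose (6.06%, against 25.4%). Among the falls were Cox6c (−1.04 ± 0.16), Ndufa1 (−0.73 ± 0.14) and Cyc1 (−0.61 ± 0.11), subunits of complexes IV, I and III. With the trend over gene length removed, 11 of the 33 genes fell and 8 rose.

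Controls gave similar counts. Of the 13779 genes, 3307 rose and 3193 fell in refed against fasted controls, or 24.0% and 23.2%. The 4955 genes that passed in both genotypes with the same sign were 75.1% of the calls in knockouts and 76.2% of the calls in controls, and 9 genes passed with opposite signs. The knockout and the control contrasts share no library but share the 2 tables. In controls 29 of the 38 ER genes rose and 0 fell (median log2 fold change 0.85), and 18 of the 26 cholesterol genes rose and 1 fell (1.05). Kupffer cell markers gave 9 falls and 0 rises of 16 in controls, and glucose output 7 falls and 3 rises of 21. G6pc, which did not pass in knockouts, fell in controls (−1.86, adjusted p = 0.00764).

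Whether the response itself differed with genotype was tested as the refed over fasted change in knockouts minus that in controls. A shift between the tables that is common to both genotypes cancels in this difference, while one that differs with genotype does not. The trend over gene length was unequal: the Spearman correlation of log2 fold change and gene length was 0.23 in knockouts and 0.07 in controls. No gene passed in either direction, which is 0.0% of the 13779 genes. At an unadjusted p under 0.05 there were 1157 genes, DESeq2 called 16, limma-voom called 0, and leaving out refed knockout replicate C gave 7 higher and 3 lower. With the length trend removed, 925 genes had an unadjusted p under 0.05, and no gene passed. The smallest adjusted p, 0.0905, belonged to Cadm4, a cell adhesion molecule. It had 10.9, 13.5, 11.1 and 7.64 CPM in refed knockouts, against 26.4, 22.5, 16.9, 22.2 and 24.7 CPM in fasted knockouts. The controls had 20.2, 18.8, 16.8 and 20.2 CPM in refed controls, against 12.9, 14.8, 12.5, 13.9, 18.7 and 20.9 CPM in fasted controls. Cadm4 fell in knockouts without overlap (log2 fold change −1.07 ± 0.17, adjusted p = 2.6e-05) and had a log2 fold change of 0.28 in controls, a difference of −1.35 ± 0.23.

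The other genes with the smallest p in either direction are given as values, since none passed. Usp34, a deubiquitinase, had log2 fold changes of 1.11 ± 0.12 in knockouts and 0.33 in controls (difference 0.78 ± 0.17). Ptprb, the endothelial receptor phosphatase VE-PTP, had 0.52 ± 0.14 and −0.40 (difference 0.92 ± 0.19), and Plxnc1, a semaphorin receptor, had 0.50 ± 0.10 and −0.24 (difference 0.74 ± 0.15). With the length trend removed, the rise of Ptprb in knockouts was lost (log2 fold change 0.22, adjusted p = 0.0741). The log2 fold changes of Usp34 and Plxnc1 in knockouts were then 0.78 and 0.30. Foxa3, a liver transcription factor whose fall in knockouts was lost without refed replicate D or with the length trend removed, had −0.54 ± 0.17 in knockouts and 0.40 in controls (difference −0.94 ± 0.23). Plcd3, a phospholipase C, had the widest difference of the set, −3.25 ± 0.76, from 0.872 ± 0.231 CPM in refed and 3.22 ± 1.71 CPM in fasted knockouts. Cdkn1a differed by −2.17 ± 0.78 and Cyp4a14 by 0.80 ± 0.32, and neither passed. A p that misses the threshold does not show that the genotypes respond alike.

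**Figure D5:**
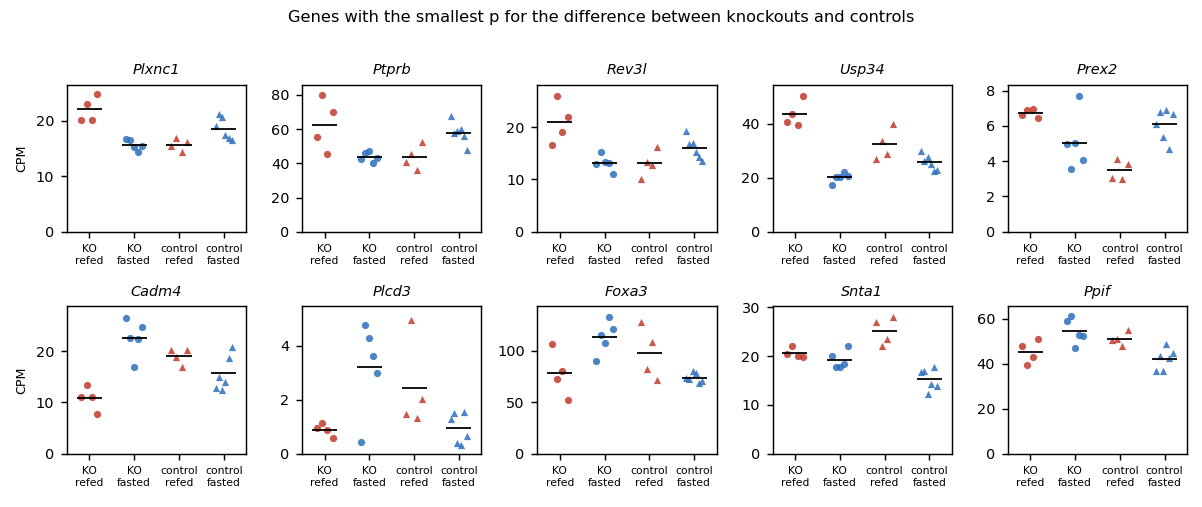
Levels of genes with the smallest p for the difference between genotypes in each library, in CPM on a linear axis, for knockouts (circles) and controls (triangles), refed in red and fasted in blue, with the group mean as a black bar. Cadm4 is lower in refed than in fasted knockouts and the refed and fasted controls overlap.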

How the data were processed

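Liver RNA of 19 chow-fed mice of the Plvap line was analysed. Reads were aligned with STAR 2.7.8a to GRCm39 and counted per gene with featureCounts 2.0, after FastQC 0.11.9 and MultiQC 1.10.1, per the submitters' processing notes. Each deposited table gives whole-number counts for every Ensembl gene with no normalization, and beside them the summed exon length in bases, a value of other kind, per the file headers. The annotation release and the counting strand are not given in the sources used here, so reads of overlapping and antisense genes cannot be told apart. Symbols matched 52083 of 55416 genes (94.0%) by Ensembl identifier in a GRCm38 annotation. The tables were joined by identifier, and the 37 mitochondrial genes and all genes at 0 in every library of one table were dropped, which left 26573.

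Groups came from the labels. The 4 groups were fitted together with edgeR 4.0.16 in R 4.3.3 (TMM, filterByExpr with minimum count 10 and minimum total 15, robust quasi-likelihood F-test), with no replicate block. Contrasts were refed against fasted knockouts, refed against fasted controls, and their difference, each adjusted over 13779 genes. The script was tested on simulated data. In a simulation of refed against fasted knockouts over 13494 genes, 36 of 50 genes raised 2-fold (log2 fold change 1) and 48 of 50 raised by a log2 fold change of 2 were recovered. Alternatives were DESeq2 1.42.0, limma-voom (limma 3.58.1), other filters, fits of the 9 knockout libraries or of all 8 groups of the line, a fit with mitochondrial genes kept, a replicate block, removal of the length trend, and leaving out each library in turn. PCR copies are not independent molecules, so depth bears on counting error only. None of the 73 possible within-group pairs held the same counts.

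The comparison, the gene lists and the 32 feeding genes were chosen with earlier results of these data known. Genes are named if they are Plvap, belong to the feeding genes, are among the 12 largest rises or falls that passed the test without overlap at a mean of at least 5 CPM, are among the up to 4 members with the smallest p that passed in a list, or have 1 of the 5 smallest p in either direction for the difference. Some genes that this rule names are not reported here, though counts over lists hold them. Promoters of 27025 genes came from RefSeq (GRCm38.p6).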

Additional observations from a re-analysis of the deposited data

Results flagged for a closer look

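In 10 of 116 groups of 4 or 5 values tested, 1 value stood apart by Dixon's ratio. For normally distributed values chance alone marks about 1 group in 20. Whether CPM follow that distribution was not tested, and part of the genes were picked for the size of their change. Refed knockout replicate D was the highest of its group at Tat with 4119 CPM, Hspb1 with 109.2 CPM, Mt1 with 309.6 CPM and Mt2 with 104.9 CPM. Refed replicate B was at 223.9 CPM for Acly, and refed replicate C was at 14.55 CPM for Mup-ps19. Among fasted knockouts, replicate E was the highest at Creld2 with 184.1 CPM and at Sdf2l1 with 81.95 CPM. Fasted replicate A was the highest at Scd1 with 8532 CPM, and fasted replicate B had 7.23% of its counts in albumin.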

How the results depend on the processing

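The counts in knockouts and in controls stayed within 1.5 times of the values reported in every alternative run, and the counts in knockouts were 3142 to 3569 higher and 2697 to 3314 lower when single libraries were left out. The replicate block gave 3337 higher and 3092 lower. Same-letter refed and fasted knockouts correlated by 0.005, −0.031, −0.052 and −0.034 in their deviations from the group means. These values show no pairing by letter. They cannot exclude a shared litter or cage, since no correlation of livers known to be paired is at hand. The difference between genotypes depended on the choice: DESeq2 called 11 genes higher and 5 lower, the test without a filter on low counts called 1 lower, the replicate block called 1 lower, and leaving out single libraries gave 0 to 7 higher and 0 to 3 lower. Calls came without refed knockout replicate B (1 lower), without refed knockout replicate C (7 higher and 3 lower), without fasted knockout replicate C (1 higher and 1 lower), without fasted knockout replicate D (1 higher) and without fasted control replicate F (1 lower). The cause was not tested. Of 176 named genes, 159 kept their call in all 20 alternatives for the knockouts and none reversed. Depth limits genes of a few CPM, such as Plvap in knockouts.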
